A study of Homo sapiens with 16 samples.

Results

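The HOX cluster genes encode homeodomain transcription factors that sit side by side in 4 chromosomal clusters, HOXA to HOXD. Members were the probe sets of the deposited gene-level table whose symbol is HOX followed by A, B, C or D and a paralog number. This gave 27 of 18495 probe sets, covering 29 genes. HOXA had 1 probe set (HOXA2), HOXB had 10, HOXC had 7 for 9 genes, and HOXD had 9. The reference gene table lists 39 HOX genes, and the other 10, all of HOXA, were not analysed here. 22 probe sets carried 1 symbol. The other 5 carried several, so their signal cannot be given to 1 gene. They were HOXB4 with MIR10A, HOXB7 with MIR196A1, HOXD1 with HAGLR, HOXD4 with MIR10B and HOXD3, and 1 probe set shared by HOXC4, HOXC5, HOXC6 and MIR196A2.

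RNA came from H9, an established human embryonic stem cell line, on Human Exon 1.0 ST arrays. Day 0 is undifferentiated H9, grown on mouse embryonic fibroblast feeders or on Matrigel with fibroblast-conditioned medium and 8 ng/ml bFGF. The other groups are H9 after 1, 3 or 5 days of activin A at 100 ng/ml, in RPMI with fetal bovine serum at 0%, 0.2% and 2% in turn. Activin, medium, serum and time in culture therefore cannot be told apart. The labels number 4 day 0 samples as biological replicates, 3 from day 1, 3 from day 3 and 4 from day 5. Replicate 4 of day 0 and of day 5 was run on 2 arrays each, which were averaged. The labels do not say whether replicates were separate cultures, so the p-values measure the spread between these samples. All cells are of 1 line, and activin A stands in for the nodal signal that patterns endoderm in the embryo.

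In the embryo, HOX genes switch on in the order in which they lie along the chromosome. Low paralog numbers mark the hindbrain and neck level, and high numbers mark the trunk and tail end. In pluripotent cells the clusters lie under Polycomb repression, in chromatin that carries activating and silencing histone marks together. WNT, FGF and retinoic acid are known to open them, through CDX factors and retinoic acid receptors, while PBX and MEIS proteins bind DNA beside HOX proteins. Definitive endoderm, the germ layer that activin yields in culture, forms before most of the regional HOX code is laid down.

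3 promoters are shown because of the results that follow and of 1 textbook site. HOXD13 is the most posterior member of its cluster and had separate groups at day 5. HOXA2, a hindbrain gene, had the largest difference at day 3. HOXB1, a hindbrain gene, has a known autoregulatory PBX-HOX element. Each is the 250 bases before a RefSeq start on GRCh38.p14, in the gene's own direction, and capitals mark TGATNNAT, the PBX-HOX motif, on either strand. They lie at chr2:176092471-176092720 (plus strand), chr7:27102684-27102933 (minus strand) and chr17:48531012-48531261 (minus strand). The HOXD13 window lies inside the gene's full RefSeq span, so the start used there is not the outermost one.
HOXD13: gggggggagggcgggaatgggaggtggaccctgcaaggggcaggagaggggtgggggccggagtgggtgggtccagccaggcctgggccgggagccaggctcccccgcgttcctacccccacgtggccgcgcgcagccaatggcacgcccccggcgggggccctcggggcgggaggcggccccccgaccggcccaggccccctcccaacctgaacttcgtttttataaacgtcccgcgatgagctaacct
HOXA2: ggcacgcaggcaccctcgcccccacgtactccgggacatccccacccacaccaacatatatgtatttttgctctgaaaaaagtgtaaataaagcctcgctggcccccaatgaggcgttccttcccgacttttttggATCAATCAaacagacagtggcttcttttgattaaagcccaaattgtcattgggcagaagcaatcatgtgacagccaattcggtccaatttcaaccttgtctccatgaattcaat
HOXB1: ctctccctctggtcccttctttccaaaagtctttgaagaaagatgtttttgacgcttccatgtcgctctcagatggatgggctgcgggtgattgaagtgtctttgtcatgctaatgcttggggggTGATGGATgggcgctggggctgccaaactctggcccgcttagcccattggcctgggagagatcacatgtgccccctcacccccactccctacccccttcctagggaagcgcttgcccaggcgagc
The HOXB1 match starts 125 bases before the gene's start and the HOXA2 match 114 bases before it. The HOXD13 window holds no match. RefSeq promoter entries were on hand for 12 of the 29 HOX genes, without HOXB2 or HOXB5. TGATNNAT occurred in 3 of the 12 (HOXA2, HOXB1 and HOXD11; 25%) and in 6.47% of all 35116 promoter windows of that length. TTTATG, a CDX-type motif, occurred in 1 of 12 (HOXD8; 8.33%) against 9.64%. AGGTCA, a retinoic acid receptor half-site, occurred in 0 of 12 against 12.1%. Both strands were searched, each motif on its own, and a match is only a match of letters. No HOX window matched more than 1 of these motifs. The HOXD13 window has 21 CG dinucleotides, the HOXA2 window 8 and the HOXB1 window 7. Over the 12 HOX windows the median was 18.5 (4 to 31), against 11 for all promoters, and 9 of 12 lay above that median. HOXC4 and HOXC5 share a RefSeq start and have 14 CG dinucleotides each, so their windows among the 12 may be the same.

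2 mature miRNAs are shown because their genes share probe sets with HOX members, which bears on how those values are read. miR-10a shares one with HOXB4, while miR-196a shares one with HOXB7 and another with HOXC4, HOXC5 and HOXC6. MIR10B, which shares the HOXD4 probe set, is not shown. Capitals mark the seed, bases 2 to 8, by which a miRNA pairs with its targets.
hsa-miR-10a-5p: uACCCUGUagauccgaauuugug
hsa-miR-196a-5p: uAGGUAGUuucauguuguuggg
The MIR10A product lies at chr17:48579904-48579926 (minus strand). The miR-196a product is identical from chr17:48632532-48632553 (minus strand) and chr12:53991762-53991783 (plus strand). Each of these places lies outside the RefSeq spans of the HOX genes that share its probe set. Which transcripts the probes read was not tested. The 2 miRNAs have different seeds, and both are known to target HOX transcripts.

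HOX probe sets were dim. Values are log2 of intensity plus 1, averaged over the technical arrays of a sample. The means of the 27 probe sets over all 14 samples ran from 2.86 to 7.76, all below the median of all probe sets (7.93). Of the 27, 17 lay in the dimmest 25% of the array (mean below 5.83). The brightness of a probe set also depends on its probes, so these values give no order of transcript level between HOX genes. The replicate spread was wider than on the rest of the array. The median SD of HOX probe sets was 0.48 at day 0 and 0.62 at day 5, against 0.33 and 0.55 for all probe sets.

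The 2 technical arrays of one RNA sample show the measurement error alone. At day 0 they differed by a median of 0.59 (log2) over the HOX probe sets, against 0.17 over all probe sets and 0.41 in the dimmest 25%. At day 5 the medians were 0.42, 0.22 and 0.49. The technical arrays differed by 1 log2 unit or more in 6 of 27 HOX probe sets at day 0 and in 6 at day 5. Only HOXB4 and HOXD11 were in both sets. The share over all probe sets at that size was not counted. HOXB4 read 4.33 on one day 0 array and 1.16 on the other. HOXD11 read 4.07 and -0.46 on the day 5 pair, and -0.46 is the lowest value in the whole table. HOXD13 repeated closely, with technical differences of 0.10 at day 0 and 0.08 at day 5. HOXB2 did so at day 5 (0.04), but its day 0 arrays differed by 0.61, more than the HOX median.

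**Figure D1:**
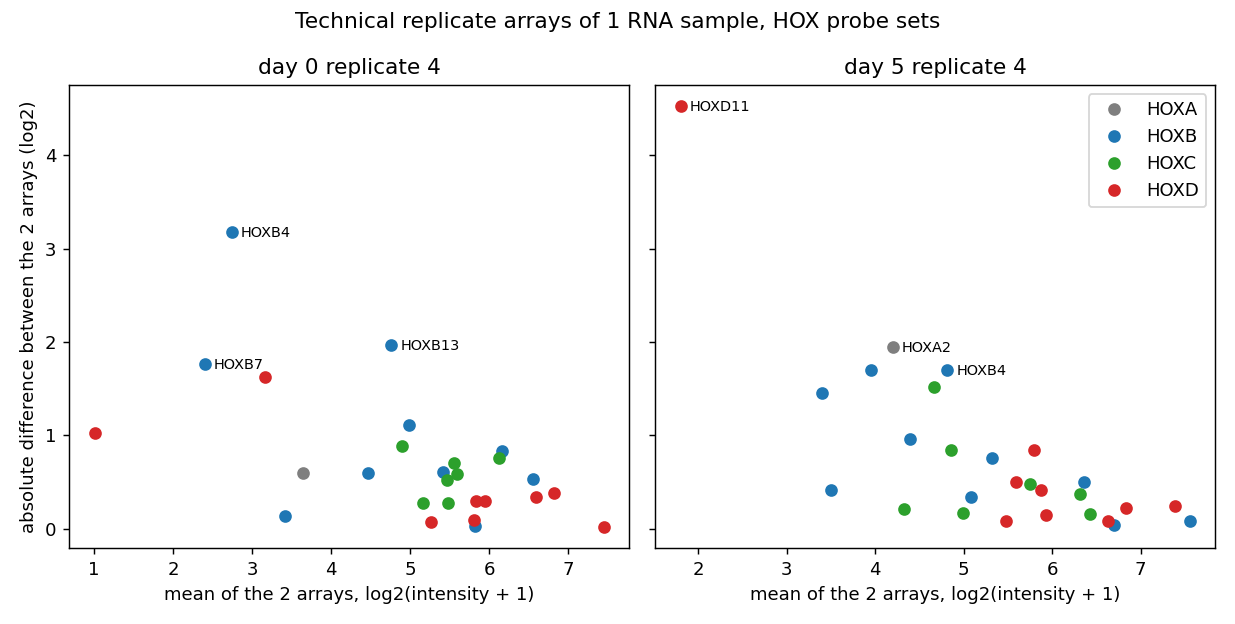
Absolute difference (log2) between 2 technical arrays of one RNA sample against their mean (log2 of intensity plus 1), for the 27 HOX probe sets, coloured by cluster; left, day 0 replicate 4; right, day 5 replicate 4. The largest differences, HOXB4 at 3.18 on the left and HOXD11 at 4.53 on the right, lie among dim probe sets.

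In the reported fit, which does not use replicate numbers, no HOX probe set passed limma's test in any of the 5 comparisons of days. The threshold was a Benjamini-Hochberg adjusted p of 0.05, over all 18495 probe sets. At day 5 against day 0, the count was 0 of 27 where 5.46% of all probe sets passed. At day 1 it was 0 where 0.00541% passed, and at day 3 it was 0 where 0.027% passed. Day 3 against day 1 gave 0 beside 0.0324%, and day 5 against day 3 gave 0 beside 0.0973%. The moderated F test over days 1, 3 and 5 against day 0 gave 0 beside 3.73%. Unadjusted p-values below 0.05 were held by 4 HOX probe sets at day 5 (14.8%), where 17.2% of all probe sets had one. They were held by 1 of 27 at day 1, where 6.03% had one, and by 4 at day 3, where 8.56% had one. The F test gave 2 (7.41%) beside 14.7%. With only the pairs of days 1 and 3 and days 3 and 5, the counts were 0 beside 8.62% and 1 beside 5.99%. With the replicate number as a block, HOXB2, HOXB5 and HOXD13 did pass at day 5. The last section gives this beside the count over all probe sets. The comparisons with day 0 share the same 4 day 0 samples. In bulk RNA, fewer cells of a type and less RNA per cell cannot be told apart.

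HOXB2 and HOXD13 were the 2 probe sets whose day 5 samples all lay above all day 0 samples (7.41% of 27), where 6.07% of all probe sets were separated in that direction. Separation the other way was seen for 0 of 27, where it was seen for 8.57% of all probe sets. The median day 5 difference over the 27 was 0.26, against a median of -0.021 over all probe sets and 0.088 in the dimmest 25%. It was above 0 in 16 of 27, where 48.4% of all probe sets were above 0. At least 2-fold higher means were held by 6 of 27 (HOXA2, HOXB2, HOXB5, HOXB7, HOXD4 and HOXD13), where 5.97% of all probe sets reached that size. Leaving out single samples gave 4 to 6. Without replicate 2 of day 5 the count lost HOXB2 and HOXB5, and without replicate 4 of day 5 it lost HOXA2 and HOXB2. Of the 6, HOXA2, HOXB7 and HOXD4 lie in the dimmest 25%, with day 0 SDs of 1.74, 1.85 and 2.08. The share of the dimmest 25% that reached 2-fold was not counted at any day, so the share over all probe sets is not a like comparison. At least 2-fold lower means were held by 0 of 27, where 6.22% of all probe sets reached that size, and by 2 (HOXC10 and HOXD9) without replicate 3 of day 5.

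**Figure D2:**
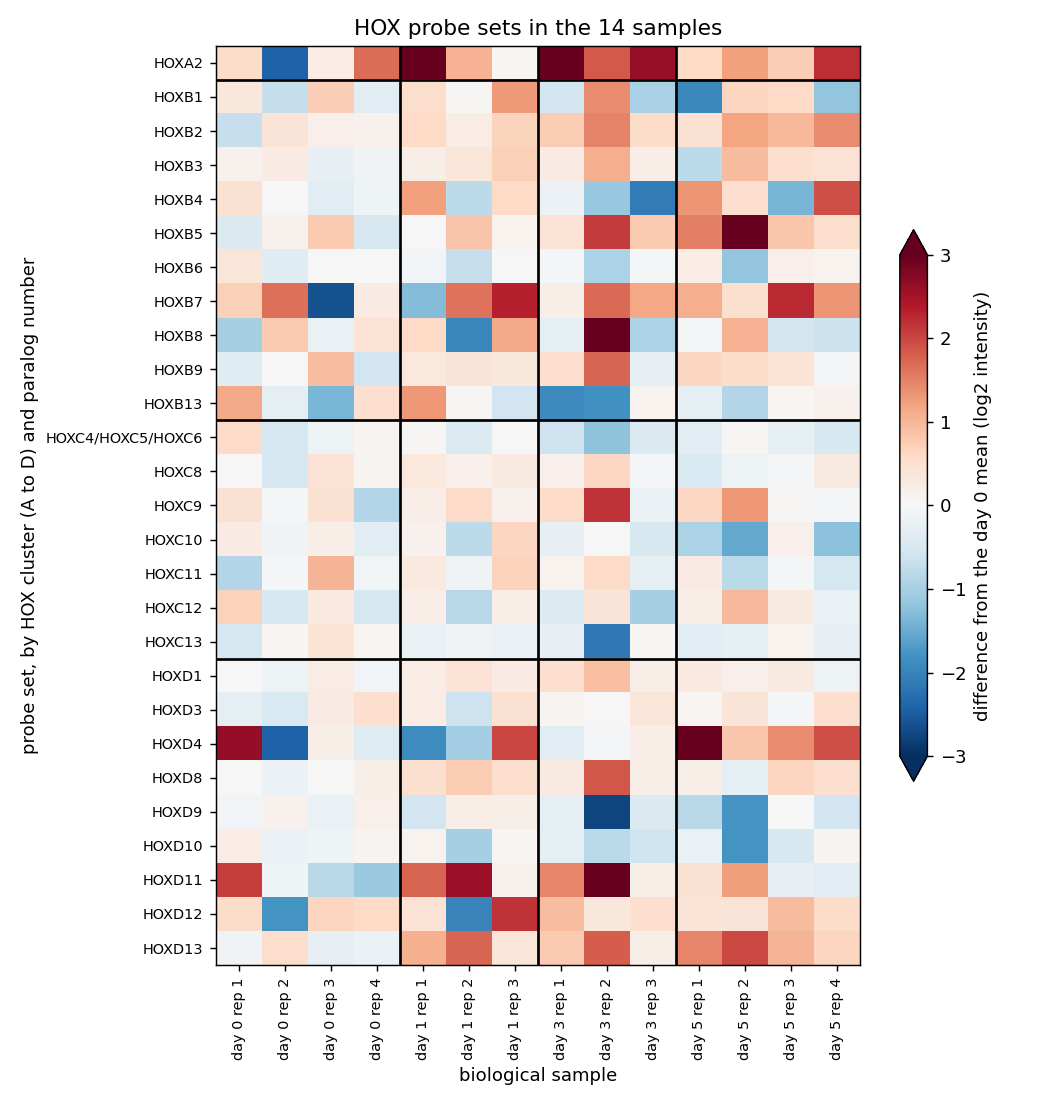
Log2 intensity of each HOX probe set (rows, by cluster A to D and paralog number) in each of the 14 samples (columns, by day) minus its day 0 mean; red is higher, blue is lower, and the colour scale stops at 3 either way. HOXB2 and HOXD13 are above their day 0 mean in all 4 day 5 samples, while most rows hold both signs within a day.

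Among the anterior paralogs, HOXB2, a hindbrain segment gene, read 4.58, 5.68, 5.45 and 5.42 at day 0. It read 5.89, 5.52 and 5.96 at day 1, and 6.04, 6.78 and 5.83 at day 3. At day 5 it read 5.74, 6.47, 6.28 and 6.70. The lowest day 5 sample lay just above the highest day 0 sample, and the day 0 group was spread by its low replicate 1. The day 5 mean of 6.30 ± 0.41 (SD, n = 4) was 1.01 ± 0.31 (SE) above the day 0 mean of 5.28 ± 0.48 (n = 4), with limma's adjusted p = 0.079. The 95% interval of this difference, which like all intervals here is not adjusted for the number of probe sets, ran from 0.35 to 1.68.

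HOXA2, which specifies the second pharyngeal arch and hindbrain, read 2.52, -0.46, 2.20 and 3.64 at day 0. It read 5.02, 3.02 and 2.03 at day 1, then 5.03, 3.83 and 4.58 at day 3. At day 5 it read 2.57, 3.21, 2.71 and 4.20, the last a mean of technical arrays at 3.23 and 5.17. The day 3 samples all lay above day 0, whereas day 5 overlapped day 0 and replicate 2 of day 0 sat at the floor of the table. The day 3 difference was 2.51 ± 0.87 (SE, limma adjusted p = 0.357) and the day 5 difference was 1.20 ± 0.80 (adjusted p = 0.521). The latter was 0.39 without replicate 2 of day 0, a sample that also lowers the day 0 mean behind the day 3 difference. Across the alternatives of the last section the day 3 difference ran from 0.89 to 3.06.

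The other anterior members were HOXB1, HOXB3, HOXD1 and HOXD3. HOXB1 ran from 5.78 to 7.24 at day 0 and from 4.57 to 7.14 at day 5, with a difference of -0.47 ± 0.65 (SE). HOXD1 was among the tightest members, from 7.40 to 7.78 at day 0 and from 7.39 to 7.83 at day 5. Its day 5 interval, -0.31 to 0.59, lay inside 2-fold in both directions, for the intensity of a probe set shared with HAGLR. The day 5 differences of HOXB3 and HOXD3 were 0.28 ± 0.34 and 0.22 ± 0.29 (SE). Only HOXD1 and HOXD3 of these 4 had a day 5 interval inside 2-fold.

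Among the central paralogs, HOXB5, a gene expressed in foregut mesenchyme and neural crest, read 6.60, 7.17, 7.82 and 6.56 at day 0. It read 7.03, 7.89 and 7.13 at day 1, and 7.47, 9.14 and 7.83 at day 3. At day 5 it read 8.55, 10.06, 7.87 and 7.56. The groups overlapped, since the lowest day 5 sample lay below the highest day 0 sample, and replicate 2 of day 5 stood well above the others. The difference was 1.47 ± 0.53 (SE, limma adjusted p = 0.150), and without that sample it was 0.96 (adjusted p = 0.336).

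HOXD4, whose probe set also carries MIR10B and HOXD3, read 6.17, 1.13, 3.73 and 3.16 at day 0. It read 1.67, 2.51 and 5.56 at day 1, and 3.22, 3.52 and 3.75 at day 3. At day 5 it read 7.18, 4.37, 4.95 and 5.47. Its day 5 minus day 0 difference, 1.95, was the largest of the 27, yet 1 day 0 sample exceeded 3 of the 4 day 5 samples. Its SE was 1.01, and limma's adjusted p was 0.367. The difference was 1.14 without replicate 2 of day 0. Against day 3 all 4 day 5 samples were higher, with a difference of 2.00 ± 1.09 (SE, adjusted p = 0.938).

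HOXB7, whose probe set also carries MIR196A1, read 2.89, 3.83, -0.46 and 2.40 at day 0. It read 0.86, 3.78 and 4.49 at day 1, and 2.36, 3.85 and 3.33 at day 3. At day 5 it read 3.25, 2.65, 4.40 and 3.50. The days overlapped, with 1 day 0 sample at the floor of the table. The day 5 difference was 1.29 ± 0.90 (SE, limma adjusted p = 0.546), and without that sample it was 0.41.

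The other central members had day 5 differences between -0.25 and 0.59. HOXB4, with MIR10A, had the upper of these (0.59 ± 0.66, SE), and its values ran from 1.47 to 4.81 within day 5 alone. HOXC4, HOXC5 and HOXC6, on their shared probe set, had the lower (-0.25 ± 0.27, SE). HOXB6 and HOXC8, trunk-level genes, had day 5 intervals inside 2-fold, and so did this shared probe set. HOXB8 differed by -0.045 and HOXD8 by 0.26, with upper bounds just above 2-fold for HOXD8 (1.00 on the log2 scale) and far above it for HOXB8 (1.92).

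Among the posterior paralogs, HOXD13, which patterns digits and the end of the gut, read 5.90, 6.53, 5.74 and 5.81 at day 0. It read 7.06, 7.75 and 6.35 at day 1, and 6.77, 7.80 and 6.16 at day 3. At day 5 it read 7.46, 7.98, 7.0 and 6.63. Day 5 lay wholly above day 0, by a narrow gap, while days 1 and 3 each had 1 sample inside the day 0 range. The day 5 mean of 7.27 ± 0.59 (SD, n = 4) was 1.28 ± 0.41 (SE) above the day 0 mean of 5.99 ± 0.36 (n = 4), with limma's adjusted p = 0.101. The 95% interval ran from 0.39 to 2.17. The sample numbered replicate 2 was the highest of its group at every day, including day 0.

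HOXC10, a lumbar-level gene, read 6.16, 5.82, 6.08 and 5.59 at day 0, with 6.05, 5.14 and 6.56 at day 1. It read 5.67, 5.89 and 5.42 at day 3, and 4.97, 4.37, 6.07 and 4.67 at day 5. At day 5, 3 samples lay below every day 0 sample and replicate 3 lay inside the day 0 range. Of these 3, replicate 4 is the mean of 2 technical arrays that read 5.43 and 3.91. The difference of -0.89 ± 0.37 (SE) was the lowest day 5 difference of the 27 (limma adjusted p = 0.231). HOXD10, its paralog, had a day 5 difference of -0.59 ± 0.38 (SE).

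HOXD9, a lower trunk gene, read 6.38, 6.59, 6.25 and 6.60 at day 0, and 5.89, 6.66 and 6.62 at day 1. It read 6.20, 3.70 and 6.02 at day 3, and 5.63, 4.70, 6.46 and 5.87 at day 5. The lowest readings of days 3 and 5 both came from replicate 2. Its day 5 difference was -0.79 ± 0.50 (SE, limma adjusted p = 0.495), or -0.47 without replicate 2 of day 5. HOXB9 and HOXC9, the paralogs of HOXD9, lay on the other side of 0, with 0.39 ± 0.40 and 0.48 ± 0.48 (SE).

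HOXC9 read 6.83, 6.33, 6.82 and 5.48 at day 0, then 6.56, 6.93 and 6.50 at day 1. It read 6.95, 8.53 and 6.16 at day 3, and 6.99, 7.65, 6.40 and 6.32 at day 5. Replicate 2 was again the highest at days 1, 3 and 5, and all later days overlapped day 0 (limma adjusted p = 0.696 at day 5). Without replicate 2 of day 5 the HOXC9 difference was 0.21, and without replicate 4 of day 0 it was 0.18. HOXC12 read 7.34, 6.15, 6.94 and 6.13 at day 0, then 6.85, 5.80 and 6.84 at day 1. It read 6.24, 7.03 and 5.64 at day 3, and 6.81, 7.60, 6.92 and 6.43 at day 5. These groups overlapped too, with a day 5 difference of 0.30 ± 0.40 (SE, adjusted p = 0.776), which single samples left out moved to between 0.083 and 0.54.

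HOXD11, which patterns forearm and kidney with its paralogs, read 4.21, 1.98, 1.30 and 1.01 at day 0, then 3.86, 4.69 and 2.24 at day 1. It read 3.58, 5.21 and 2.30 at day 3, and 2.57, 3.39, 1.88 and 1.80 at day 5. Every day overlapped day 0, whose replicate 1 was high. HOXB13, a tail and prostate gene, read 5.41, 4.00, 2.91 and 4.76 at day 0, then 5.56, 4.30 and 3.70 at day 1. It read 2.36, 2.45 and 4.38 at day 3, and 4.00, 3.39, 4.33 and 4.39 at day 5. Its low readings were 2 of the 3 day 3 samples, and day 5 lay inside the day 0 range. The day 5 differences of the other posterior members (HOXC11, HOXC13 and HOXD12) ran from -0.29 to 0.58.

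**Figure D3:**
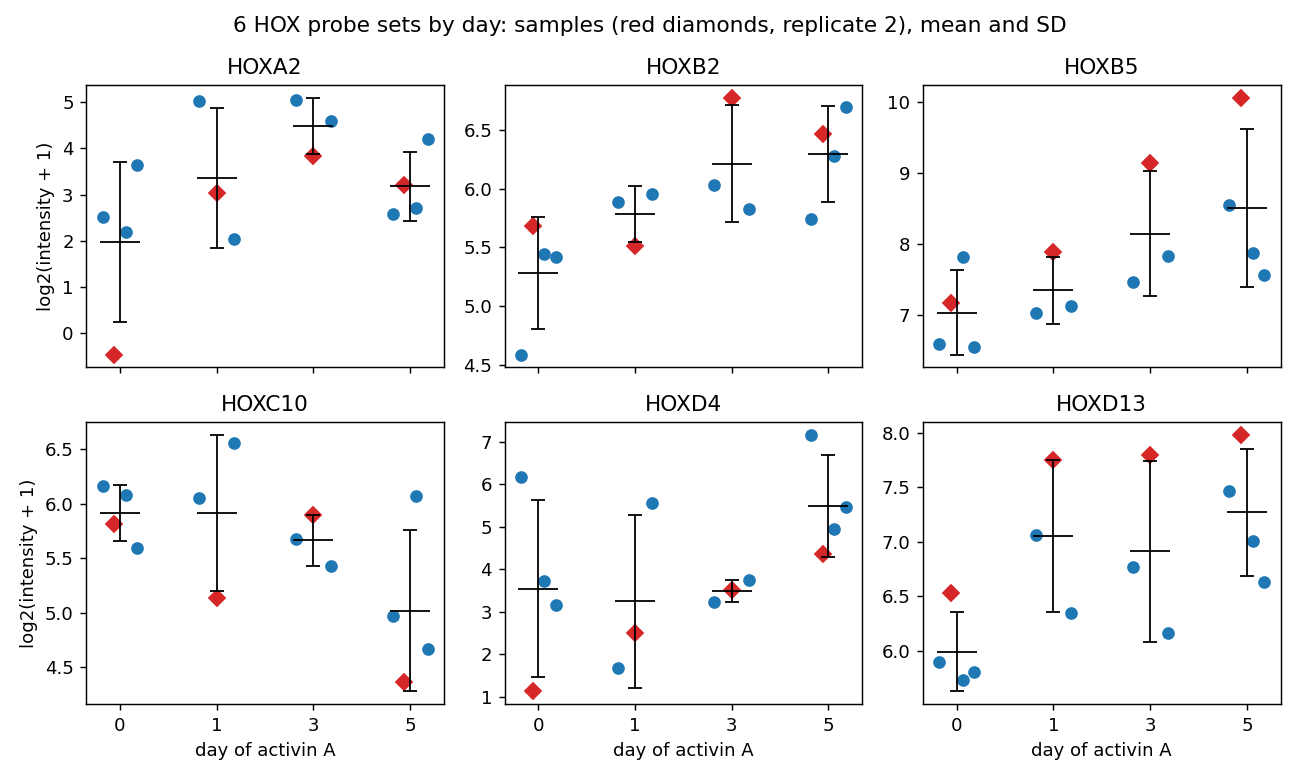
Log2 of intensity plus 1 (vertical axis) by day of activin A (horizontal axis) for HOXA2, HOXB2, HOXB5, HOXC10, HOXD4 and HOXD13; points are biological samples, red diamonds are replicate 2, and lines give the mean with SD bars. HOXB2 and HOXD13 at day 5 lie above all day 0 samples, HOXA2 does so at day 3, and HOXC10 has 3 of 4 day 5 samples below day 0.

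At day 1 the HOX probe sets with the largest differences were HOXD11 (1.48 ± 0.85, SE), HOXA2 (1.38 ± 0.87) and HOXD13 (1.06 ± 0.45, limma adjusted p = 0.737). HOXD11 was at 0.93 without replicate 2 of day 1, and HOXA2 at 0.57 without replicate 2 of day 0 or 0.55 without replicate 1 of day 1. At least 2-fold higher means were held by these 3 of 27, where 2.11% of all probe sets reached that size. The 2 whose day 1 samples all lay above day 0 were different ones, HOXD1 and HOXD8 (7.41% of 27), where 4.86% of all probe sets were separated in that direction. HOXD8 read 5.10, 4.90, 5.06 and 5.26 at day 0 and 5.56, 5.85 and 5.61 at day 1, a small step in a tight pair of groups (0.59 ± 0.37, SE). The day 5 range, 4.78 to 5.73, overlapped day 0. Lower at day 1 in every sample were 0 of 27, where 6.62% of all probe sets were. The median difference was 0.30, with 19 of 27 above 0, against 0.025 over all probe sets, of which 52.8% were above 0.

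At day 3 the largest differences were HOXA2 (2.51), HOXD11 (1.57 ± 0.85, SE, limma adjusted p = 0.672) and HOXB13 (-1.21 ± 0.64, adjusted p = 0.667). All day 3 samples lay above day 0 for HOXA2, HOXB2 and HOXD8 (3 of 27, where 3.27% of all probe sets were so separated). They lay below it for HOXD9 and HOXD10 (2 of 27, where 6.55% were). At least 2-fold higher means were held by 4 of 27, where 3.7% of all probe sets reached that size, and at least 2-fold lower means by 3, where 3.22% did. Without replicate 2 of day 3 these counts were 1 (HOXA2) and 1 (HOXB4). HOXB13 was at -1.87 without replicate 3 of day 3. The median day 3 difference was 0.24, with 16 of 27 above 0, where 48.7% of all probe sets were above 0. Much of the day 3 pattern moved with 1 library. Replicate 2 of day 3 had a median correlation of 0.83 with the other libraries of its group over all probe sets, replicate 2 of day 5 had 0.86, and the other samples had 0.90 to 0.96. It gave the highest of all 14 values in 10 HOX probe sets and the lowest in 3, which is 48.1% of the 27, and it was highest or lowest in 37.6% of all probe sets. Replicate 2 of day 5 was highest in 3 and lowest in 4 (25.9%, against 34.4% of all probe sets). In HOXB8, a trunk gene, replicate 2 of day 3 read 7.61 beside 3.76 and 3.09.

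Without that library the median day 3 difference over the 27 dropped from 0.24 to 0.050, with 14 rather than 16 above 0. HOXA2 stood at 2.83 (limma adjusted p = 0.182) and HOXB2 at 0.65 (adjusted p = 0.436), while HOXB8 went from 0.78 to -0.62. HOXD9 went from -1.15 to -0.35, HOXD11 from 1.57 to 0.82 and HOXC9 from 0.85 to 0.19. With the same omission the SE of the day 5 difference, which rests on the spread of all groups, went from 0.31 to 0.27 for HOXB2 and from 0.41 to 0.36 for HOXD13. HOXB2 (adjusted p = 0.0395) and HOXD13 (adjusted p = 0.0456) then passed at day 5, which made 2 of 27 beside 8.73% of all probe sets. Day 1 stayed at 0 of 27 (0.249% of all), day 3 at 0 (3.19%) and the F test at 0 (8.20%). The day 5 call for these 2 genes thus changed when 1 day 3 library was left out.

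From day 1 to day 3, the probe set of HOXC4, HOXC5 and HOXC6 was the 1 whose groups did not overlap, with lower day 3 values, where 7.53% of all probe sets were lower in that way. It read 5.38, 4.29, 4.66 and 4.89 at day 0, 4.84, 4.39 and 4.82 at day 1, then 4.17, 3.60 and 4.38 at day 3, and 4.49, 4.83, 4.55 and 4.33 at day 5. The day 1 and day 3 groups were parted by a gap smaller than the spread within either. From day 3 to day 5, HOXD4 was the 1 separated upwards, where 2.61% of all probe sets were. HOXB4 had the lowest p of that comparison, with a difference of 1.72 (unadjusted p = 0.0306, limma adjusted p = 0.742). Its technical arrays at day 0 differed by more than that. Without replicate 2 of day 3, which leaves 2 day 3 samples, HOXB1 and HOXD8 were also separated downwards from day 1 to day 3 (3 in all, beside 22.7% of all probe sets). From day 3 to day 5, HOXC12 joined HOXD4 upwards (2, beside 10.3%) and HOXA2 was separated downwards (1, beside 12.4%). The median day 3 minus day 1 difference of the 27 was 0.088 with that library and -0.20 without it.

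The 3 clusters with several members were set beside each other at day 5. The median difference was 0.33 in HOXB, with 6 of 10 above 0, and 0.26 in HOXD, with 7 of 9 above 0. In HOXC it was -0.19, with 2 of 7 above 0, where 48.4% of all probe sets were above 0. At day 1 the medians were 0.35, 0.20 and 0.0015, and at day 3 they were 0.59, 0.53 and -0.25 in the same order. Without replicate 2 of day 3 the day 3 medians were 0.039 for HOXB, 0.24 for HOXD and -0.099 for HOXC. The difference between clusters was not tested, since neighbouring genes of 1 cluster are not replicates.

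By position along the clusters, the 6 anterior probe sets (paralogs 1 to 3) had a median day 5 difference of 0.25, the 9 central ones (4 to 8) 0.26 and the 12 posterior ones (9 to 13) 0.048. The number above 0 was 5 of 6, 5 of 9 and 6 of 12, where 48.4% of all probe sets were above 0. At day 1 the medians were 0.46, 0.24 and 0.23. All 6 anterior members lay above 0 at day 1, where 52.8% of all probe sets did. The difference between positions was not tested, since members of 1 part are not replicates. At day 3 the medians were 0.52, 0.24 and -0.060, and without replicate 2 of day 3 they were 0.29, -0.060 and -0.096. The day 5 differences of paralog group 2 were 1.20 for HOXA2 and 1.01 for HOXB2, neither past the test, and without replicate 2 of day 0 that of HOXA2 was 0.39. Those of group 10 were -0.89 for HOXC10 and -0.59 for HOXD10, also short of it. Members of group 9 and of group 13 held both signs. HOXD13, the most posterior gene of its cluster, had the largest day 5 difference of the 12 posterior members.

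The intervals show what differences in intensity these arrays could exclude. At day 5, 5 of 27 probe sets had a 95% interval wholly inside 2-fold in both directions (HOXB6, HOXC4 with HOXC5 and HOXC6, HOXC8, HOXD1 and HOXD3). All of these but HOXD1 lie in the dimmest 25% of the array. How far such dim intensities follow transcript level was not tested. For 11 of 27 the upper bound lay below a 2-fold rise. At day 1 these counts were 5 and 9, and at day 3 they were 2 and 11. For the remaining members a difference of 2-fold or more in at least 1 direction is not excluded by these intervals. Those of HOXB2, HOXB5, HOXD13 and HOXC10 lie to one side of 0 at day 5, though none of these 4 passed after adjustment in the reported fit.

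**Figure D4:**
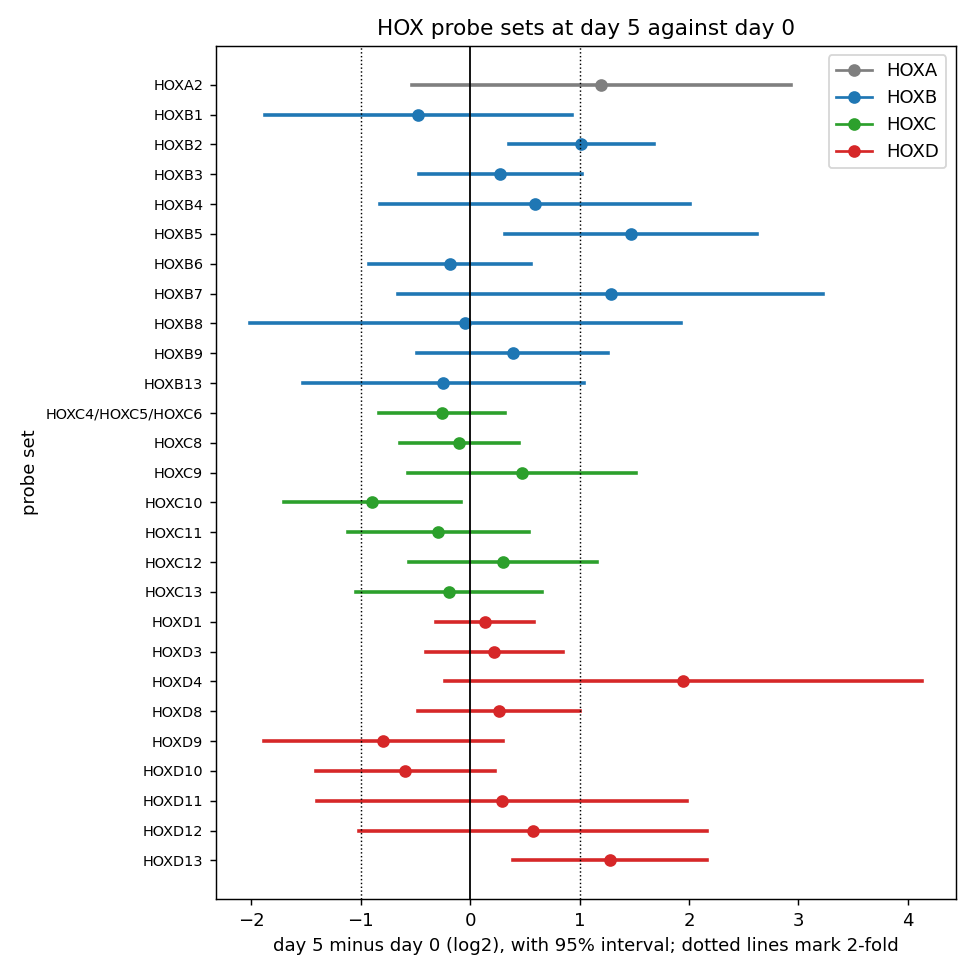
Day 5 minus day 0 difference (log2, horizontal axis) of each HOX probe set with its 95% interval from limma, by cluster; dotted lines mark 2-fold. HOXB2, HOXB5 and HOXD13 have intervals above 0, HOXC10 has one below 0, and HOXD4 has the largest difference with an interval from -0.23 to 4.13.

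Other genes that act with or on the HOX clusters were described from fixed lists. Of the retinoic acid pathway, 2 of 16 measured genes rose at day 5 and 0 fell, where 5.46% of all probe sets passed in either direction. RXRG, a partner of the retinoic acid receptors, rose by 4.44 ± 0.55 (SE, limma adjusted p = 0.000709). It ran from 4.53 to 5.14 at day 0 and from 9.03 to 9.60 at day 5. CYP26A1, the enzyme that breaks retinoic acid down, rose by 2.80 ± 0.55 (adjusted p = 0.0095). It ran from 9.81 to 10.99 at day 0 and from 12.85 to 13.40 at day 5. In neither gene did the groups overlap. Of 23 Polycomb and trithorax genes, 1 rose and 0 fell, a share no higher than that 5.46%. BMI1, a subunit of Polycomb repressive complex 1, rose by 1.12 ± 0.28 (adjusted p = 0.0321), with 7.83 to 8.23 at day 0 and 8.54 to 9.76 at day 5. MTF2, a partner of complex 2, had the next lowest p (-0.62 ± 0.19, adjusted p = 0.0773).

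Of 11 HOX-related homeobox genes, 0 passed at day 5, and MNX1 (0.87 ± 0.26, SE, limma adjusted p = 0.0714) and PDX1 (1.98 ± 0.66, adjusted p = 0.113) had the lowest p. EVX1, which lies beside HOXA13 and marks the posterior streak, ran from 3.73 to 6.17 at day 0 and from 6.31 to 7.30 at day 5 (1.82 ± 0.63, adjusted p = 0.127). CDX2, a direct activator of central HOX genes, ran from 4.08 to 5.01 and from 4.55 to 5.99 (0.61 ± 0.35, adjusted p = 0.427). EVX1 was thus apart from day 0 without passing the test, and CDX2 overlapped. Of 6 TALE cofactors, 0 passed. MEIS1, a HOX partner, had 0.66 ± 0.23 (adjusted p = 0.136), and PBX3 had -0.59 ± 0.30 (adjusted p = 0.358).

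Genes next to the clusters gave no calls either. Of 20 flanking genes 0 passed at day 5, with a median difference of 0.024, and the lowest p belonged to TAX1BP1 (0.39 ± 0.21, SE, limma adjusted p = 0.374) and CALCOCO2 (0.50 ± 0.27, adjusted p = 0.406). Of 21 HOX cluster noncoding RNAs, HOXB-AS3 was the 1 with a probe set of its own. It ran from 5.78 to 7.14 at day 0 and from 3.39 to 6.18 at day 5 (-1.32 ± 0.50, adjusted p = 0.175), and its groups overlapped. At days 1 and 3 against day 0, 0 members of these lists passed.

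The cell type labels were checked with marker lists. All 10 endoderm markers rose at day 5, among them SOX17 (4.88), HHEX (3.57) and GSC (6.12), while 3 of 6 stem cell markers fell (DNMT3B, PRDM14 and THY1). The summed intensity of the endoderm list was 2719.4 to 7544.9 at day 0, 15748.1 to 46987.3 at day 1, 3988.6 to 53676.7 at day 3 and 47340.6 to 70913.1 at day 5, and replicate 2 had the lowest sum at each of days 1, 3 and 5. Its day 3 sum lay inside the day 0 range. Markers of cells known to express HOX genes were also measured. The counts of these lists at day 5 cover measured markers only and stand beside the 5.46% of all probe sets that passed. Of 11 fibroblast markers 1 rose (LUM, 4.57 ± 0.71, SE, limma adjusted p = 0.00241). COL1A1 (-1.80 ± 0.69, adjusted p = 0.184) and COL6A3 (-0.94 ± 0.35, adjusted p = 0.167) lay the other way without passing. Their sum was 4899.6 to 8898.2 at day 0, 2864.4 to 5387.0 at day 1, 2441.8 to 8367.4 at day 3 and 4085.5 to 11713.3 at day 5. Of 8 neural markers 1 rose (PAX6, 4.34 ± 0.43, adjusted p = 0.000332), with sums of 5297.5 to 9524.6, 4417.2 to 5882.1, 5648.0 to 8242.7 and 4701.9 to 8322.3. Of 7 mesoderm markers HAND1 rose and KDR fell, and of 6 trophoblast markers GATA3 rose. No marker was at an intensity of 0. The part of such cells in the HOX values was not tested.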

How the data were processed

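Gene-level values of 16 Human Exon 1.0 ST arrays were used as deposited. They are intensity on a linear scale, per the labels and the values, from -0.273 to 30307.1, with array medians of 245.1 to 246.3. The submitters' processing notes name build hg18. How the arrays were summarised or normalized is not given in the sources used here. An array has no read depth, so the number of arrays limits precision.

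Values were taken to log2 after adding 1, technical arrays were averaged (avearrays), and 14 samples were fitted by day in limma 3.58.1 (lmFit and eBayes; R 4.3.3), with 10 residual and 3 prior degrees of freedom. Benjamini-Hochberg adjustment ran over 18495 probe sets. Intervals are 95% from the moderated fit. The script was tested on simulated data. Probe sets were named from the platform's annotation (14577 with 1 symbol, 2849 with several and 1069 with none). Sequences are RefSeq's, on GRCh38.p14, and no other coordinates are given because that build differs from the files'.

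Members and lists were chosen with earlier results of these data known. Full values are given for the 3 largest day 5 differences in each cluster and the 3 largest at days 1 and 3. Of each other list the 2 lowest p at day 5 are named, with CDX2, EVX1 and MEIS1. HOXD8, COL1A1, COL6A3, HOXC4 with HOXC5 and HOXC6, and other members named for separate groups, extreme readings or tight intervals were picked after their values were seen. Replicate numbers were not taken as pairs. Alternatives covered technical arrays, normalization, filter, variance model, pseudocount and samples left out.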

Additional observations from a re-analysis of the deposited data

Results flagged for a closer look

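In groups of 4 samples, 54 sets of HOX values (27 probe sets at day 0 and at day 5) were searched for a sample far from the rest with Dixon's 95% limit. Of these, 2 passed it, where chance flags about 1 in 20 groups, or 2.7 here. HOXB6, a trunk-level gene, read 3.79 in replicate 2 of day 5, beside 5.08 to 5.20 in the other 3 samples. Replicate 2 was also its lowest sample at days 0, 1 and 3 (4.62, 4.30 and 4.04). HOXD12, a limb and posterior trunk gene, read 3.44 in replicate 2 of day 0, beside 5.79 to 5.88 in the other 3. Replicate 2 was also its lowest sample at days 1, 3 and 5 (3.24, 5.57 and 5.62).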

How the results depend on the processing

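Across 28 settings, of which 14 left out 1 sample each, 437 values of the 16 named differences were recomputed. All kept their direction, 427 also kept their side of the threshold, and 10 passed the test in place of missing it. Their sizes moved more: HOXA2 from 0.43 to 2.96 at day 1, 0.89 to 3.06 at day 3 and 0.28 to 1.76 at day 5, HOXD11 from 0.46 to 2.17 at day 1 and 0.54 to 2.27 at day 3, and HOXB13 from -1.87 to -0.58 at day 3. At day 5, HOXB7 ran from 0.30 to 1.84, HOXC9 from 0.049 to 0.65, HOXC12 from 0.064 to 0.54, HOXC10 from -1.24 to -0.56, HOXD4 from 0.97 to 2.82 and HOXD9 from -1.06 to -0.36. The count of HOX probe sets past limma's test was 0 in each comparison in the reported fit and moved under these settings alone. With array weights, a fit that stopped before it converged, it was 4 at day 1, 1 at day 3, 2 at day 5, 5 for day 3 against day 1 and 10 by the F test. There 2543, 2800, 3000, 6302 and 8421 of all probe sets passed in the same order. Leaving out single samples gave 0 to 2 at day 5, with 2 (HOXB2 and HOXD13) without replicate 2 of day 3, and 0 to 0 elsewhere. With the replicate number as a block, 3 passed at day 5 (HOXB2, HOXB5 and HOXD13) beside 1448 of all probe sets, and 1 by the F test (HOXD13) beside 859. The labels tie nothing to these numbers. Same-numbered deviations correlated from -0.28 to 0.65 over all pairs of days. Among days 1, 3 and 5 the correlations were 0.51, 0.51 and 0.65 for replicate 2 and 0.37, 0.43 and 0.56 for replicate 3. For replicate 1 they ran from -0.15 to 0.19. The reported fit does not model any sharing by number. Between days 0 and 5 the correlations were -0.063, 0.12, -0.28 and 0.51 for replicates 1, 2, 3 and 4. In 2 of 8 checks between days 0 and 5 a sample correlated best with its own number, and these 2 were replicate 4. Each of those checks had 4 candidate samples. Over all days it was 18 of 38 checks, with 3 or 4 candidates each. The fit of only the groups compared gives no F value. Without the dimmest 25% of probe sets, 10 of the 27 HOX probe sets remained to be tested. The adjusted p of HOXB2 at day 5 ranged from 0.0051 to 0.233 over the alternatives and that of HOXD13 from 0.0063 to 0.241. Dim signal limits most members: 17 of 27 lie in the dimmest 25%, where technical arrays differed by more than over all probe sets.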
